A study of Mus musculus with 8 samples.

Results

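CTCF sites in mouse skeletal muscle were taken from the peak list of 1 chromatin immunoprecipitation library made with an antibody to Ctcf. They are all rows of that list on chromosomes 1 to 19 and X, except rows whose both edges lay within 50 bases of the edges of 1 row of the H3K4me3 list. The rule gave 6051 sites out of 6510 rows on these chromosomes and 6531 rows in all, and it left out 459 rows. The 6 peak lists of the series held 189412 rows together. No measured level entered the rule, but it used the H3K4me3 list, so an overlap of the left-out rows with H3K4me3 is fixed by it.

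The study mapped the glucocorticoid receptor (GR) and the chromatin around it in skeletal muscle. All 8 samples came from C57/Bl6J mice of wild-type genotype, for which the sample labels give an age of 10 to 12 weeks and the series text one of 10 weeks. Chromatin from muscle nuclei was precipitated for CTCF, H3K4me3, H3K4me1, H3K27ac, RNA polymerase II (Pol2) or GR, with 1 library for each antibody, and 2 inputs were sequenced. The labels tie Input2 to CTCF and H3K4me3, and Input1 to the other 4 antibodies. Neither the number of animals behind a library nor its read depth is given in the sources used here, so the values below describe 1 library and carry no replicate check. Intervals are exact Clopper-Pearson 95% intervals over sites, pairs or genes, and cover counting error only.

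CTCF is a zinc-finger protein that binds a long, directional DNA motif and is found at similar places in most cell types. It holds back the cohesin ring as cohesin extrudes chromatin, so the anchors of chromatin loops typically carry motifs that point towards each other. Its sites are known as insulators between neighbouring genes, as at the imprinted Igf2 and H19 genes, and CTCF also binds close to many gene starts.

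The sequences under the sites carried the motif. The windows below are 42 bases long and are written 5′ to 3′ on the strand of the match, with the 12 bases that match the CTCF core consensus in capitals (GRCm38, the build mm10, from RefSeq). H2-DMa, Gse1 and Csk are shown because they had the highest folds among sites with an exact match at a promoter on the forward strand, inside a gene, and at a promoter on the reverse strand. Stag1, Ckm, Myc, Rplp0 and Igf2 mark genes described further on. The Sgca and Glul windows lie between the 5′ ends of a gene with Pol2 and of a neighbour without it. The Igf2 and Sgca windows each have 1 mismatch to the consensus.
H2-DMa, chr17:34135404-34135445, plus strand: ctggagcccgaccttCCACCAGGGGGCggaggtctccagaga
Gse1, chr8:120319681-120319722, plus strand: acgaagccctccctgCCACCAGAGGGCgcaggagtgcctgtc
Csk, chr9:57645682-57645723, minus strand: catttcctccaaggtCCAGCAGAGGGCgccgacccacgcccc
Stag1, chr9:100643558-100643599, plus strand: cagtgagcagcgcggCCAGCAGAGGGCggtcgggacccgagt
Ckm, chr7:19405538-19405579, plus strand: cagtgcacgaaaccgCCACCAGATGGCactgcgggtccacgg
Myc, chr15:61983416-61983457, plus strand: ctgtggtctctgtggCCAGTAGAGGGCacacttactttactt
Rplp0, chr5:115559275-115559316, plus strand: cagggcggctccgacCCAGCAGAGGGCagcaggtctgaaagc
Igf2, chr7:142672311-142672352, minus strand: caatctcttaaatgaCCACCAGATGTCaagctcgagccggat
Hils1-Sgca, chr11:94970411-94970452, minus strand: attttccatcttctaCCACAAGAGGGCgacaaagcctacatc
Teddm1a-Glul, chr1:153895093-153895134, plus strand: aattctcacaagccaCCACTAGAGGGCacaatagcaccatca

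The core consensus, allowing at most 1 mismatch on either strand within 100 bases of the summit, was present at 4050 of 6051 CTCF sites (66.9%, 65.7 to 68.1). It was present at 4 of the 459 left-out rows (0.871%, 0.238 to 2.22). Of 12038 windows of the same length placed 2 kb to either side of the sites, 332 held it (2.76%, 2.47 to 3.07), and of 17642 H3K4me3 summits with no CTCF row, 360 did (2.04%, 1.84 to 2.26). An exact match was found at 1589 sites (26.3%), at none of the left-out rows, in 21 flanking windows (0.174%) and at 9 H3K4me3 summits (0.0510%). With 2 mismatches allowed the share was 90.8% at the sites, 17.2% at left-out rows, 19% in flanking windows and 25.1% at H3K4me3 summits. Base composition differed between these windows, with a median GC content of 54.2% at the sites, 40.8% at left-out rows, 47.8% in flanking windows and 64.7% at H3K4me3 summits. Windows lay mostly in repeats at 190 sites (3.14%), at 444 left-out rows (96.7%) and in 20.1% of flanking windows, and the matched bases themselves were repeat sequence at 7.78% of the sites with a match, against 47.0% of the flanking windows with one.

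**Figure D1:**
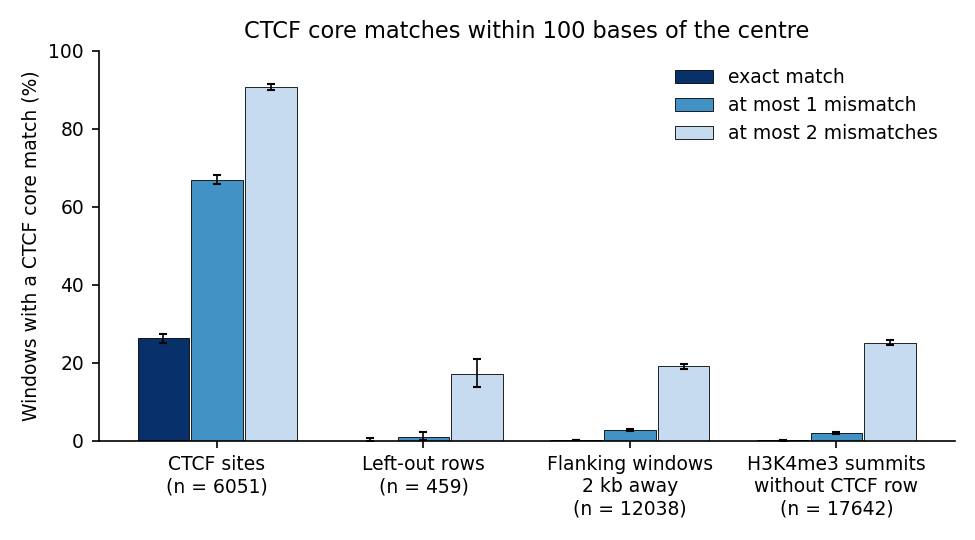
Share of windows, in percent, that held the 12-base CTCF core within 100 bases of the centre, by the number of mismatches allowed, with exact 95% intervals. With at most 1 mismatch 66.9% of the CTCF sites held it, against 0.871% of left-out rows, 2.76% of flanking windows and 2.04% of H3K4me3 summits without a CTCF row.

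The match lay close to the summit. Its median distance from the summit was 19.5 bases, 63.0% of matches were within 25 bases and 91.2% within 50, and 2012 matches were on the forward and 2038 on the reverse strand. Bases next to the core, which were not searched, also differed from those beside matches in flanking windows. The base after the core was G at 51.4% of sites and at 21.7% of flanking matches, and the next was C at 52.7% and 22%. The base at position -3, counted back from the core, was T at 44.5% and 13.3%. These are examples, and the base compared was the commonest one at the sites. Other positions went the other way, such as -8, with C at 34.3% and 52.7%, or were alike, such as -12, with T at 51.3% and 49.7%.

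The left-out rows and the sites nearest to the edge rule were of another kind. Just inside the rule lay 3 rows with edge distances of 51, 52 and 53 bases, nearest to Pcdh7, Phkb and Defa20, with folds of 10.1, 10.1 and 6.72. Just outside lay 3 rows at 50 bases, nearest to Galnt5, Mme and Tex29, with folds of 13.4, 10.6 and 6.72. All 6 windows were entirely repeat sequence and none matched within 1 mismatch. Of the 33 sites at 51 to 75 bases, 27.3% held the core and 60.6% were mostly repeat, whereas of the 154 sites at 76 to 200 bases 63.0% held the core and 2.60% were mostly repeat. Some sites next to the rule were thus repeat sequence without a core, like the left-out rows. Without the 190 sites mostly in repeats the share with a core was 67.5%.

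The label of the tissue was checked on the other lists of the study. All 10 skeletal muscle markers, among them Acta1, Ckm and Ttn, had both an H3K4me3 and a Pol2 row within 1 kb of a transcription start site (TSS). None of 6 liver and none of 6 neuron markers had either. Endothelial markers had H3K4me3 at 6 of 6 and Pol2 at 1 of 6, fibroblast markers had each mark at 4 of 6, and immune markers had H3K4me3 at 0 and Pol2 at 1 of 6. In whole muscle, fewer cells of a type and less signal per cell cannot be told apart.

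The deposited fold over input (enrichment at the summit, a linear ratio from the authors' peak caller) had a median of 7.28 at the CTCF sites, with quartiles of 6.16 and 9.25 and a range of 2.19 to 98.5. The left-out rows had a median of 12.9, with quartiles of 9.24 and 21.3. Folds above 20 were given to 73 sites and folds under 4 to 22. The values are coarse: the 6051 sites shared 534 distinct folds, the commonest, 6.72, was given to 379 sites, and the 10 commonest covered 2361 sites (39.0%). Peaks were 185 to 726 bases wide with a median of 227.

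A higher fold did not go with a better core match. The median fold was 7.28 at sites with an exact match, 7.28 at sites with 1 mismatch and 7.82 at sites with no match within 1 mismatch. When the sites were ranked by fold into 10 equal bands, the share with a core was 71.6% in the lowest band and 58.2% in the highest. Within either class of H3K4me3 this fall was not seen: among sites without H3K4me3 the share with a core was 75.9% in the lowest band and 72.3% in the highest, and among sites with it 49% and 51.8%. Over the same bands the share overlapping H3K4me3 was 15.8% in the lowest and 68.9% in the highest, and the share within 1 kb of a protein-coding TSS was 12.9% and 56.0%. The median fold was 8.91 at sites with H3K4me3 and 7.14 without it, 10.1 with a Pol2 row and 7.28 without, and 9.01 with a GR row and 7.08 without. Among sites with H3K4me3 the median was 8.87 with an exact match and 8.91 with none within 1 mismatch. Among sites without H3K4me3 it was 7.04 and 7.28.

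**Figure D2:**
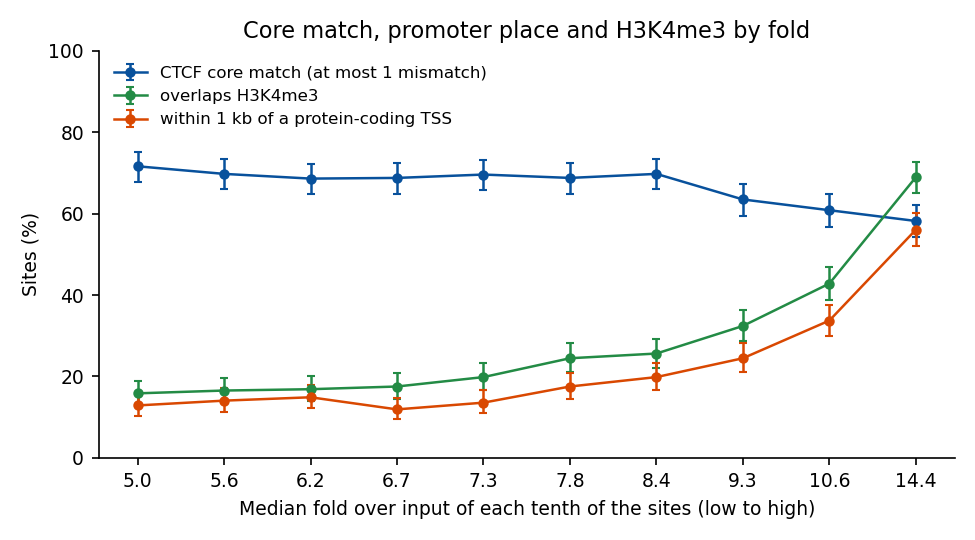
Share of sites, in percent, with a core match (blue), overlapping H3K4me3 (green) and within 1 kb of a protein-coding TSS (orange), in 10 equal bands of sites ranked by fold and labelled with the median fold of each band, with exact 95% intervals. From the lowest to the highest band the core match goes from 71.6% to 58.2% and the H3K4me3 overlap from 15.8% to 68.9%.

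The site with the highest fold, 98.5, lay at chr17:79087992-79088332 in an intron nearest to Qpct. Its window was entirely repeat, its best core match had 6 mismatches, and it overlapped H3K4me3 but not Pol2, GR, H3K4me1 or H3K27ac, so it resembled the left-out rows. The next lay in an exon 2189 bases from the TSS of Gdf15, a stress-induced secreted factor of the TGF-beta family, with a fold of 40.3 and a core with 1 mismatch. Sites 50 to 200 bases upstream of the TSS of Sh3glb1 (33.0), Rapgef1 (31.3), Sh3gl1 (30.9), Atad2b (29.7), Exosc8 (29.7), Dnajc11 (28.0) and Nipsnap2 (28.0) followed, and a site 16522 bases from Zfp239 (28.0) completed the 10 highest. The 9 sites below the Qpct site each overlapped H3K4me3, H3K27ac, Pol2 and GR rows, and 4 of them held a core within 1 mismatch. Among sites with an exact core the highest folds were at H2-DMa (26.9, a chaperone of antigen loading), Acbd4 (25.8), Gse1 (24.1), Lsm11 (23.9) and Csk (23.5, a kinase that restrains Src).

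By place, 1324 CTCF sites (21.9%, 20.8 to 22.9) had their summit within 1 kb of a protein-coding TSS, 387 (6.40%) lay in exons, 1856 (30.7%) in introns and 2484 (41.1%) between genes. Of the left-out rows, 1.74% were within 1 kb of a TSS and 76.9% between genes. The median distance to the nearest TSS was 9846 bases, 49.7% of the sites were more than 10 kb away and 6.25% more than 100 kb away. The share with a core was 76.6% in introns, 70.5% between genes, 68.5% in exons and 46.2% near a TSS. The lower share near a TSS went with H3K4me3: of the 207 sites near a TSS without H3K4me3, 139 held a core (67.1%, 60.3 to 73.5).

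The sites at promoters sat mainly upstream of the start. Of 1324 sites within 1 kb of a TSS, 975 (73.6%) were upstream, 692 (52.3%) lay 0 to 200 bases upstream, and the median position was 71 bases upstream. The median fold was 10.1 in that 0 to 200 base band and 7.84 at 500 to 1000 bases upstream. The core pointed the same way as the gene at 384 of 612 promoter sites with a core (62.7%, 58.8 to 66.6). This share was 71.9% (66.4 to 76.9) at 0 to 200 bases upstream and 37.3% (24.1 to 51.9) at 200 to 500 bases downstream.

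Most sites overlapped at least the enhancer-associated mark H3K4me1. A row of H3K4me1 was overlapped by 3457 sites (57.1%), of H3K4me3 by 1699 (28.1%), of GR by 1621 (26.8%), of H3K27ac by 1346 (22.2%) and of Pol2 by 955 (15.8%). The left-out rows overlapped H3K4me1 at 4.14%, GR at 1.53%, and H3K27ac and Pol2 at 0 of 459, which allows up to 0.800% by the exact interval. Sites with a core overlapped H3K4me3 less often than sites without one (20.1% against 44.2%), and likewise Pol2 (10.1% against 27.2%) and GR (20.8% against 38.9%). For H3K4me1 the shares were 56.5% with a core and 58.5% without.

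Genes with a CTCF site at the promoter more often had Pol2. A site lay within 1 kb of a TSS in 1377 of 21670 protein-coding genes (6.35%), and 78.6% (76.4 to 80.8) of these genes had a Pol2 row within 1 kb, against 44.8% (44.1 to 45.5) of genes with no such site. Among genes with H3K4me3 the shares were 83.2% (81.0 to 85.2) and 75.3% (74.5 to 76). Within 10 kb a site was found for 22.7% of genes with Pol2 and for 10.6% of genes without it, and the median distance to the nearest site was 44186 and 144442 bases.

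Sites were unevenly spread over the chromosomes. Chromosome 11 had the most, 561 sites or 4.60 per Mb, and among the autosomes chromosome 3 had the fewest per Mb, 1.54. Set against genes, chromosome 15 had 39.9 sites per 100 protein-coding genes. Chromosome X had 27 sites, or 0.158 per Mb and 2.85 per 100 genes, of which 48.1% held a core. The autosomes held 15.5 times as many sites per Mb as X. The same ratio was 2.08 for H3K4me3, 3.36 for Pol2, 4.07 for H3K27ac, 4.21 for H3K4me1 and 6.01 for GR. H3K4me3 shares its input with CTCF, and the other 4 lists share another. For the left-out rows it was 0.769, with 38 rows on X. The sparseness of X was thus larger in the CTCF list than in the other 5 lists, and the cause was not tested.

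Neighbouring sites were typically about 100 kb apart. Over 6031 neighbouring pairs the median distance between summits was 111131 bases (105390 to 117059, an order-statistic 95% interval), with quartiles of 36926 and 318864 bases. Under 1 kb lay 65 pairs, at 1 to 10 kb 543, at 10 to 100 kb 2267 (37.6%), at 100 kb to 1 Mb 2584 (42.8%), at 1 to 3 Mb 413 and over 3 Mb 159. The closest pair, 266 bases apart, lay at the promoter of Ccdc126, with folds of 7.84 and 7.28. Between neighbouring sites with a core the median was 161554 bases. Close and isolated sites were alike in fold: the median was 7.51 at sites with a neighbour under 10 kb away and 7.28 at sites 100 kb or more from any other, and the share with a core was 68.2% and 64.8%.

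**Figure D3:**
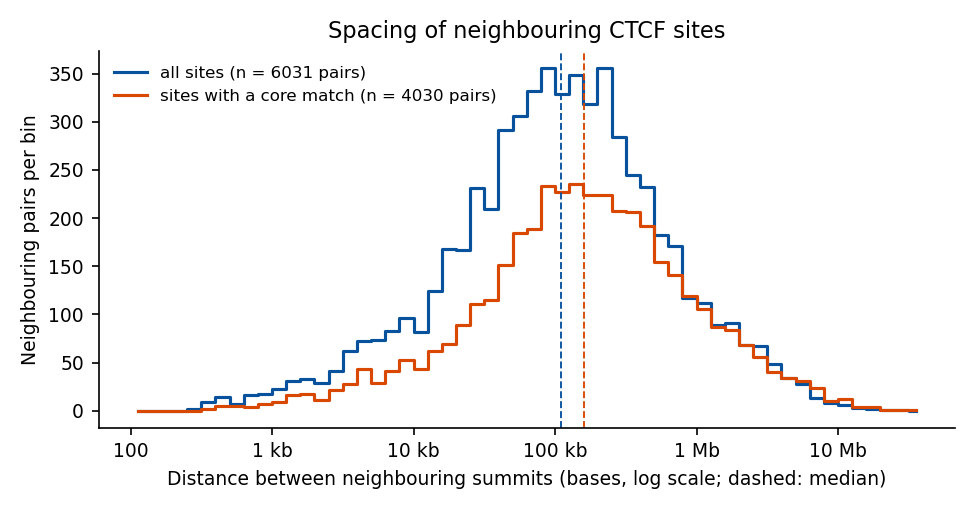
Number of neighbouring pairs by the distance between summits on a log scale, for all sites (blue) and for sites with a core match (orange), with the medians dashed. The medians are 111131 bases for all sites and 161554 bases for sites with a core match.

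The direction of the cores was read for the 2713 neighbouring pairs in which both sites had one. Convergent pairs, whose cores point towards each other as at typical loop anchors, made up 26.2% (24.6 to 27.9). Divergent pairs made up 25.9% (24.3 to 27.6), pairs with both cores forward 22.9% and pairs with both reverse 25%. The mix changed with distance. Under 10 kb, 29 of 290 pairs were convergent (10.0%, 6.80 to 14) and 106 divergent (36.6%, 31.0 to 42.4). At 10 to 100 kb the shares were 26.2% convergent and 28.6% divergent, at 100 kb to 1 Mb 29.4% (26.8 to 32.1) and 21.7% (19.3 to 24.2), and at 1 Mb or more 30.7% and 21.5%. With an exact core required of both sites, 12.5% of 48 pairs under 10 kb were convergent and 35.4% divergent. These are neighbours on the chromosome, and no contacts between sites were measured.

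**Figure D4:**
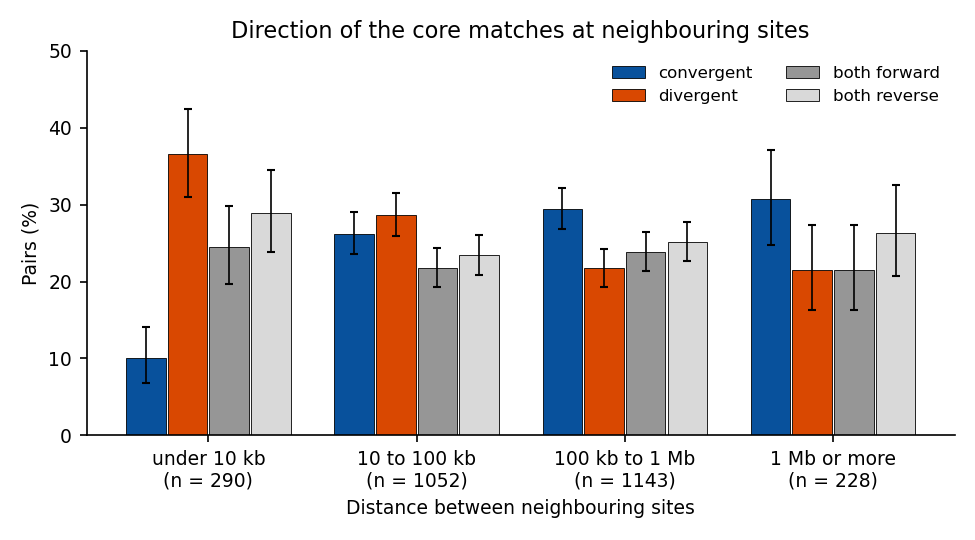
Share of neighbouring site pairs, in percent with exact 95% intervals, by the direction of the 2 cores and the distance between the sites. Under 10 kb 10.0% of pairs are convergent and 36.6% divergent, and at 100 kb to 1 Mb 29.4% are convergent and 21.7% divergent.

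A typical interval between neighbouring sites held few genes. Counting protein-coding genes whose 5′ end lay between the summits, the median was 2 and the mean 3.53, and 21267 of 21670 genes lay in some interval. No gene lay in 1328 intervals (22%), 1 gene in 1439 (23.9%), 2 to 5 in 2255 (37.4%), 6 to 20 in 887 (14.7%) and over 20 in 122 (2.02%). Intervals without a gene had a median length of 18071 bases and intervals with 1 gene 67745 bases.

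The longest intervals were mostly on X. The longest, 29.1 Mb, ran from Gripap1 to Slc25a5 and held 174 genes, of which 40 had Pol2. It was followed on X by 21.6 Mb from Chm to Btk, 18.7 Mb from Pls3 to Fam90a1b, with the dystrophin gene Dmd inside, and 15.9 Mb from Gpc3 to 4933436I01Rik. The longest autosomal interval, 13.5 Mb on chromosome 16, ran from Arl13b to Samsn1 with 20 genes. The intervals with the most genes after the first held clusters of chemosensory receptor genes: 133 genes from Olfr987 to Olfr1161 on chromosome 2, none with Pol2, the adjoining 106 genes from Olfr73 to Mtch2 with 3, 121 genes from Pvr to Smg9 on chromosome 7 with 9, and 108 genes from Robo3 to Zfp202 on chromosome 9 with 4.

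Adjacent genes with a CTCF site between them more often had Pol2 at 1 gene only, and less often at neither, than other neighbours. Among 4712 pairs of adjacent protein-coding genes with a site between their 5′ ends, 2486 were alike, with Pol2 at both or at neither (52.8%, 51.3 to 54.2), against 11600 of 16924 pairs with no site between (68.5%, 67.8 to 69.2). Pol2 at 1 gene only was thus seen in 47.2% and 31.5%. Pol2 at both genes was also commoner with a site (34.7% against 28.1%), and Pol2 at neither was rarer (18.1% against 40.5%). The lower share of alike pairs with a site thus came from fewer pairs with Pol2 at neither gene. Gene distance differed between pairs with and without a site, with medians of 68354.5 and 34551 bases. Pairs were therefore also compared within bands of distance. Pol2 was at 1 gene only in 48.9% with a site and 30.7% without at 2 to 10 kb, in 45.6% and 29.0% at 10 to 30 kb, in 47.3% and 34.2% at 30 to 100 kb, in 47.1% and 39.2% at 100 to 300 kb, and in 51% and 43.0% over 300 kb. The intervals did not overlap in these 5 bands, but pairs share genes and come from 1 library, so this is no test. Under 2 kb the shares were 19.1% of 47 pairs and 7.47% of 1472, where 1 Pol2 row can serve both genes.

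The share of active genes differed as well: 58.3% of the genes in pairs with a site between had Pol2, against 43.8% without. If the states of the 2 genes were combined without regard to each other, these levels p would give 2p(1-p), or 48.6% and 49.2% of pairs with Pol2 at 1 gene only. The measured 47.2% with a site lay close to the first value and the measured 31.5% without a site lay well under the second. Without a site this gap was smaller at long distances. It was 29.0% beside 47.3% at 10 to 30 kb and 39.2% beside 48.9% at 100 to 300 kb. Over 300 kb both groups lay near 2p(1-p), with 51% beside 49.8% with a site and 43.0% beside 44.9% without. Each p was pooled over its group, and regions poor in Pol2, such as receptor clusters, also bring the share under 2p(1-p). The comparison thus cannot tell a link between neighbours from such regions. At 10 to 30 kb the site pairs had 46.8% and the others 35.9% when the genes were divergent, 44.0% and 25.8% when they ran the same way, and 48.5% and 31.2% when they were convergent. With only sites more than 1 kb from any protein-coding TSS, the share was 58.5% at 2 to 10 kb (82 pairs), 46.9% at 10 to 30 kb and 48.4% at 30 to 100 kb. The matching shares without such a site were not computed by band. Over all distances 51.5% of pairs with such a site were alike in Pol2, against 67.9% without.

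For H3K4me3 the raw difference was smaller and turned with distance, and so did not hold at all distances. H3K4me3 was at 1 gene only in 34.4% of pairs with a site and 28.0% without. At 10 to 30 kb it was 36.0% and 25.1%, whereas at 100 to 300 kb it was 30.4% and 34.2% and over 300 kb 36.5% and 42.0%. More genes were marked in pairs with a site than in pairs without, 80.3% and 61.9% at 100 to 300 kb. Set beside 2p(1-p) the pattern was like that of Pol2: at 100 to 300 kb the measured 30.4% with a site stood beside 31.6% and the measured 34.2% without a site beside 47.2%, and over all distances 34.4% stood beside 35.6% and 28.0% beside 49%. Pairs share genes and adjacent genes can share a family, so the intervals are too narrow. Without olfactory, vomeronasal and taste receptor genes and unnamed genes, the pairs alike in Pol2 were 53.5% with a site and 64.2% without.

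**Figure D5:**
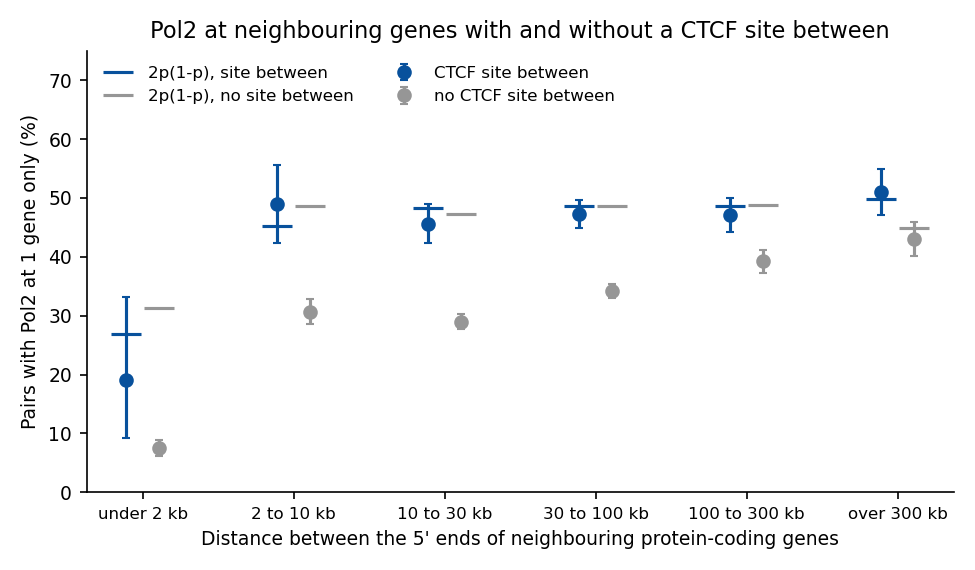
Share of adjacent protein-coding gene pairs, in percent, with a Pol2 row at 1 of the 2 genes only, with a CTCF site between them (blue) and with none (grey), by the distance between gene 5′ ends; points carry exact 95% intervals, and dashes mark 2p(1-p) from the share p of genes with Pol2. At 10 to 30 kb the share is 45.6% with a site and 29.0% without, with dashes at 48.2% and 47.3%.

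Some pairs under 10 kb apart, chosen after their values were seen from 124 such pairs that differed in Pol2, show the arrangement. The choice favoured muscle genes with Pol2 and does not stand for the rest. In another of these pairs Tnnc1, a troponin gene, lacked Pol2 and its neighbour Nisch had it. Sgca, the muscle membrane protein alpha-sarcoglycan, had Pol2 and H3K4me3 and its neighbour Hils1, a histone-like gene of sperm cells, had neither. The site between them lay 5821 bases from the Sgca 5′ end and 2913 from that of Hils1, with a fold of 6.72 and 1 mismatch, and 170 bases from an inner TSS of Sgca. Glul, glutamine synthetase, had both marks and Teddm1a 8202 bases away had neither, with a site of fold 6.10 and an exact core in between. Mustn1, a nuclear protein of muscle and skeleton, had both marks, and Itih4, a plasma protein made by liver, had neither, with a site of fold 6.72 and a core with 2 mismatches. Jsrp1, a protein of the muscle sarcoplasmic reticulum, had both marks and Amh, the anti-Müllerian hormone, had neither, with a site of fold 5.95 and 2 mismatches. The site next to Glul lay in an intron and the site next to Mustn1 in an exon. The site next to Jsrp1 lay 850 bases from the Amh 5′ end. None of these 4 sites overlapped H3K4me3, against 28.1% of all sites, and all 4 overlapped H3K4me1, against 57.1%. So few chosen sites cannot show a difference from these shares.

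Genes of the CTCF and cohesin machinery often had a site at their own promoter. Of 16 such genes 6 (37.5%) had a site within 1 kb of a TSS and 7 (43.8%) within 10 kb, against 6.35% and 16.3% of all protein-coding genes; 15 of the 16 had Pol2, and of all genes with Pol2 10.6% and 22.7% had such a site. Pds5b, a cohesin regulator, had a site 50 bases from a TSS with a fold of 21.3 and 1 mismatch. Stag1, a cohesin subunit, had one at 39 bases with a fold of 15.9 and an exact core on the forward strand. Esco1, an acetyltransferase of cohesin, had one at 40 bases with a fold of 12.3. Stag2, another cohesin subunit, had one at 148 bases with a fold of 10.1 and 2 mismatches, and Pds5a had one at 100 bases with a fold of 7.28 and 3 mismatches. Ctcf itself (chr8:105636568-105682922) had a site 164 bases from a TSS with a fold of 9.25 and 2 mismatches. The interval of 14146 bases that ended at this site held the 5′ end of Ctcf and of no other protein-coding gene. Most of the Ctcf gene lay beyond the site. The left site of the interval had an exact core and a fold of 9.60. Rad21, the cohesin kleisin, and the loader Nipbl had none within 10 kb, and Rad21 lay 169148 bases from the nearest site.

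Of 26 muscle contractile genes, 2 had a site within 1 kb (7.69%, against 6.35% of all protein-coding genes) and 10 within 10 kb (38.5%, against 16.3%). Pol2 was at 23 of them, and of all genes with Pol2 22.7% had a site within 10 kb. Tpm1, a tropomyosin, had a site at 125 bases with a fold of 7.02, and Tnnt1, the slow troponin T, had one at 954 bases with a fold of 10.1 and an exact core. Ckm, the muscle creatine kinase, had a site 5417 bases from the start of its protein-coding transcripts, in an intron of the annotated gene, with a fold of 11.2 and the exact core shown above. Mylpf, the fast regulatory myosin light chain, had one at 1043 bases with a fold of 7.27. Casq1, the calcium store protein calsequestrin, had a site at 2404 bases with a fold of 13.4, inside the gene. The interval of 30575 bases that began at this site held the 5′ end of Casq1 and of no other protein-coding gene. Des, desmin, lay 11260 bases from the nearest site and was alone in an interval of 53541 bases. The skeletal actin gene Acta1 lay 30141 bases from the nearest site, in an interval of 91951 bases shared with Ccsap. The myosin heavy chain genes Myh2, Myh1, Myh4, Myh8 and Myh13 stood together in 1 interval of 237620 bases, bounded by an exact forward core on the left with a fold of 6.38 and an exact reverse core on the right with a fold of 8.40, a convergent pair.

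Of 17 muscle transcription factors, none had a site within 1 kb, against 6.35% of all protein-coding genes. Within 10 kb 2 had one (11.8%, against 16.3%). Pol2 was at 15 of the 17, and of all genes with Pol2 10.6% and 22.7% had such a site. Such a small list cannot show a difference from these shares. Myod1, the myogenic regulator, had a site 2682 bases from its TSS, with a fold of 6.16 and 1 mismatch, which separated it, Otog and Ush1c from the genes to its right in an interval of 152705 bases. Myog, myogenin, had no Pol2 row and lay 42077 bases from the nearest site, in an interval of 129813 bases with Adora1.

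Of 18 imprinted genes, none had a site within 1 kb, against 6.35% of all protein-coding genes. Within 10 kb 4 had one (22.2%, against 16.3%): Grb10, Cdkn1c, Plagl1 and Igf2. The growth factor gene Igf2 had neither Pol2 nor a site nearer than 5499 bases, at chr7:142672229-142672436 with a fold of 7.80 and the core shown above. The non-coding RNA gene H19 had no listed site within 10 kb, and its nearest lay 32609 bases away, at chr7:142610636-142610836, with a fold of 4.78 and no core within 1 mismatch. With the depth unknown, a gene without a listed site is not shown to be free of CTCF.

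Of 14 genes at textbook CTCF loci, 1 had a site within 1 kb (7.14%, against 6.35% of all protein-coding genes) and 2 within 10 kb (14.3%, against 16.3%). App, the amyloid precursor gene, had a site 2 bases from a TSS with a fold of 14.1 and 2 mismatches. Myc had a site 1957 bases upstream with a fold of 4.85 and an exact forward core, and was alone in an interval of 1788344 bases closed on the right by an exact reverse core with a fold of 3.99. Xist, the non-coding RNA of X inactivation, lay 1277842 bases from the nearest site, in an interval of 10774038 bases with 68 protein-coding genes.

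The other lists are set against the same 6.35% of all protein-coding genes with a site within 1 kb and 16.3% within 10 kb. These shares were 10.6% and 22.7% for genes with Pol2, and 2.56% and 10.6% for genes without it. All 14 housekeeping and all 15 clock genes had Pol2. Of 14 housekeeping genes, 3 had a site within 1 kb (21.4%) and 4 within 10 kb (28.6%), among them Actb, with a site 16 bases from a TSS and a fold of 5.52, and Rplp0, a ribosomal protein gene, with an exact core 146 bases away and a fold of 15.1. Of 15 clock genes, 2 had a site within 1 kb (13.3%) and 4 within 10 kb (26.7%), with Bhlhe40 at 811 bases and a fold of 13.1. Of 11 neuronal genes, none of which had Pol2, 1 had a site within 1 kb (9.09%), Rbfox3 with a fold of 7.84, and 2 within 10 kb (18.2%). Of 12 liver genes, none of which had Pol2, none had a site within 10 kb and 4 (33.3%) had one within 50 kb. Within 50 kb the share was 41.2% for all protein-coding genes and 30.9% for those without Pol2. Lists of 11 to 26 genes give coarse shares, and no list was tested against the others.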

How the data were processed

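Per the labels, 1 library per antibody and 2 inputs were made from skeletal muscle nuclei. Tools credited in the submitters' processing notes are MACS2, Bowtie (1.0.0) and bcl2fastq (2.17.1.14), and the build is mm10; roles and thresholds are not stated there. The authors deposited peak positions for all 6 lists. For CTCF and H3K4me3 they also deposited an integer score, a fold (linear ratio) over the control, the summit position, a −log10 q-value and a −log10 p-value; without header lines, these columns were identified by what they hold. The other 4 deposited lists hold positions and names only. Read depths are unknown. No column of per-sample values was left unused (0).

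Genes and transcription start sites came from GENCODE M21 and sequence from RefSeq GRCm38, the build mm10. The 12-base core was searched on both strands, 100 bases to each side of the summit, allowing 1 mismatch; the best match had the fewest mismatches and then lay nearest to the summit. The search was tested on simulated data. A window was mostly repeat when over 50% of its bases were soft-masked. Start sites were those of protein-coding transcripts. A gene had Pol2 or H3K4me3 if a row lay within 1 kb of any of its start sites, genes were ordered and put into intervals by their outermost annotated 5′ end, and overlap of sites meant 1 shared base.

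With 1 library no test over samples could be made, and differences are described with exact Clopper-Pearson 95% intervals. The rule, gene lists and comparisons were chosen with earlier results of these data known. Non-coding list members were looked up among all genes, with all their transcript starts, and the background is protein-coding genes. Named were the 10 highest folds, the 5 longest and 5 fullest intervals, up to 5 members per list with a site within 1 kb, the rows next to the edge rule, and Ctcf, Acta1, Ckm, Myod1, Myog, H19, Igf2, Xist and Myc; other genes were named after their values were seen. Alternatives changed the edge rule, fold, mismatches, windows, marks and gene sets. Software was Python 3.11.15, pandas 2.3.3, scipy 1.17.1, pysam 0.24.0 and samtools 1.23.1.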

Additional observations from a re-analysis of the deposited data

Results flagged for a closer look

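On the mitochondrial genome the CTCF list held 5 rows, with folds of 3.72 to 5.80 and a median of 4.61. On Y it held 16 rows, with folds of 5.40 to 29.1 and a median of 9.68. The 459 rows whose edges matched an H3K4me3 row had a median fold of 12.9, were mostly repeat in 96.7% and held a core in 0.871%. None of these rows was counted among the 6051 sites. The 459 left-out rows were set beside the sites for reference and entered only the alternative values with all rows kept.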

How the results depend on the processing

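Of 76 alternative values, 48 stayed within the 95% interval of the reported value, or within 1.5 times it for a count, and 28 moved. The values are single shares, medians and counts, so a reversal was not defined for them. Of the alternatives, 15 were chosen after seeing the data. The number of sites, the convergent share (25.4% to 26.9%) and, with Pol2, the equal gene pairs with a site between stayed. With all rows kept, the core share was 62.3%, the share near a TSS 20.5%, the H3K4me3 overlap 33.1%, the spacing 122658 bases and the fold 7.59. With an edge tolerance of 200 bases the H3K4me3 overlap was 25.8%. With only folds above the median, these values were 64.3%, 30.3%, 38.9%, 213479 bases and 9.25, genes per interval were 3, and 22 of 142 listed genes had a site within 10 kb, against 35. The core share was 26.3% with no mismatch and 90.8% with 2. The share near a TSS was 37.9% within 5 kb and 29.5% with all annotated genes. The H3K4me3 overlap was 22% when 50% of the peak had to be covered and 32.2% within 1 kb. Spacing between sites with a core was 161554 bases. Genes per interval were 1 when whole gene bodies had to fit. Equal gene pairs with a site between were 65.6% with H3K4me3 in place of Pol2, and those with no site between ranged from 64.2% to 72%. With Pol2, those with no site between moved from 68.5% to 66.7% with only folds above the median. They moved to 67.5% with only sites with a core, and to 64.2% without receptor families and unnamed genes. Listed genes with a site were 15 within 1 kb and 68 within 50 kb, and 40 within 10 kb when starts of non-coding transcripts were included, which put a site within 1 kb of Ckm, Mylpf and Gap43 as well. The causes of these moves were not tested, other than that stricter settings keep fewer sites. No paired analysis was possible because CTCF has 1 library. The unknown depth limits how far a missing site can be read.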
